A study of Homo sapiens with 4 samples.

Results

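Untreated A375 cells (S) were divided by how many UMIs of LINC01419 they held, a UMI (unique molecular identifier) standing for 1 captured transcript. Of the 6695 barcodes of S, 6693 held at least 500 genes and at most 20% mitochondrial UMIs, of 28640 such cells in the whole series. The 2952 cells with at least 2 UMIs of LINC01419 are called LINC01419+ and the 2054 cells with 0 UMIs LINC01419-. The remaining 1687 cells held 1 UMI and were kept apart. The UMIs of LINC01419 therefore chose the cells, and its own level in the groups is a description. A cell with 0 UMIs is not a cell without the transcript, since most transcripts of a cell are not captured.

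A375 is an established human melanoma line with the *BRAF* V600E mutation. S cells were sensitive and received no drug, whereas RV, RVC and RVT cells were made resistant to vemurafenib alone, to vemurafenib with cobimetinib and to vemurafenib with trametinib over 10 to 14 days at doses below the IC50, and the drugs were removed 24 h before capture. Each condition was a single 10x Genomics Chromium v2 library with 10000 cells loaded, so no test between cells or conditions was made. Levels are CPM, the share of a gene among the summed UMIs of a group scaled to counts per 1e6. Ranges in parentheses are 95% intervals that cover counting error only, exact Poisson for levels and Clopper-Pearson for percentages of cells. Cells of 1 library are not replicates.

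LINC01419 is a long intergenic non-coding RNA, a class of transcripts that lie between protein-coding genes and have no known protein product. Many RNAs of this class are made in few cell types and differ between cells of a line. Melanocytes, the cells from which melanoma arises, derive from the neural crest, and SOX10, ERBB3 and S100B mark that lineage. MHC class II molecules present peptides to CD4+ T cells, mainly on professional antigen-presenting cells, and are also found on some melanoma cells.

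The S library held 63582691 UMIs, with a median of 8911 UMIs per cell and quartiles of 7174 and 11017. RV was deeper with a median of 11648, whereas RVC and RVT were shallower with medians of 4099 and 2951 and were counted with another gene annotation. S shared 38 barcodes with RV, 70 with RVC and 84 with RVT. The melanoma lineage marker SOX10 was at 96.8 CPM in LINC01419+ and 71.2 CPM in LINC01419- cells, and VIM at 2466 and 2382 CPM. Of the pigment genes, TYR had no UMI in either group, MLANA 0 and 1 UMI and PMEL 5 and 4. OCA2 had 198 and 67 UMIs, or 6.43 and 3.77 CPM, a log2 ratio of 0.77 (0.36 to 1.19). RAB27A had 172 and 106 UMIs, or 5.59 and 5.97 CPM. Marker lists of fibroblasts, leukocytes, endothelial cells and hepatocytes summed to at most 10.2 CPM in either group. None of their genes reached the average of 10 CPM over both groups that was needed to be compared. Keratinocyte markers summed to 239 and 254 CPM, nearly all of it KRT10 at 231 and 243 CPM, and KRT5 had no UMI in either group. PTPRC, the pan-leukocyte marker, had no UMI in either group.

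LINC01419 (ENSG00000253898) lies on the plus strand of chromosome 8 at 83403758 to 83408900 in GRCh38 and is annotated as lincRNA in GENCODE 29. It was at 186 CPM (183 to 190) in S and at 780 CPM (771 to 789) in RVC. In RV it was at 0.109 CPM (0.0398 to 0.236), from 6 UMIs, and in RVT at 0.763 CPM (0.478 to 1.16), from 22 UMIs. UMIs of the transcript were thus found in most cells of S and RVC, and in almost none of RV and RVT. The part of free RNA in these UMIs was not tested.

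In S, 44.1% (42.9 to 45.3) of the cells were LINC01419+, 25.2% held 1 UMI and 30.7% (29.6 to 31.8) were LINC01419-. If every cell had carried the transcript at the same level per UMI, Poisson counting at each cell's depth would have left 20.3% of the cells, or 1359, at 0 and put 50.2% at 2 or more. The LINC01419+ cells ranged from 2 to 17 UMIs with a median of 3, which gave 330 CPM for the group. These UMIs set the groups, so the shares are a description.

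**Figure D1:**
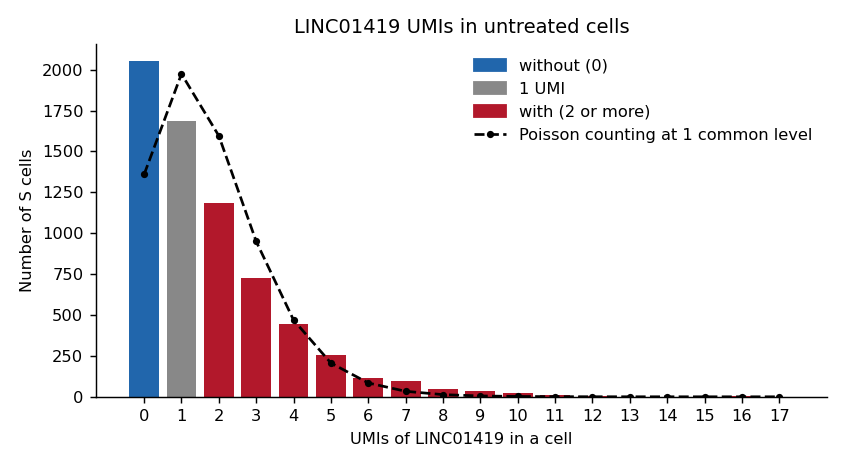
Number of S cells (vertical axis) by UMIs of LINC01419 (horizontal axis). Blue marks the 2054 LINC01419- cells, grey the 1687 cells with 1 UMI, red the 2952 LINC01419+ cells, and the dashed line the numbers that Poisson counting at 1 common level gives, which has 1359 cells at 0.

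The LINC01419+ cells were also the deeper ones. Their median was 9662.5 UMIs and 2273 genes, against 8242 UMIs and 1996.5 genes in LINC01419- cells and 8524 UMIs in cells with 1 UMI. The mitochondrial share was alike, with medians of 3.14% and 3.17%. A cut on doublet scores took out 195 LINC01419+ and 80 LINC01419- cells, and without these 68 genes were at least 1.5-fold higher and 57 lower, beside 57 and 47 with all cells. The level of LINC01419 per UMI did not follow depth: with the cells ranked by total UMIs and cut into 3 equal classes, it was 192, 181 and 188 CPM from the shallowest to the deepest. The share at 0 was nevertheless smaller in deeper cells, at 39.1%, 30.5% and 22.4% in these classes, beside 32.3%, 19.1% and 9.51% at a common level.

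To take depth out of the division, each cell was thinned to 5000 UMIs and grouped again by its thinned UMIs. Of 6337 cells that were deep enough, 2953 or 46.6% then had 0 UMIs, against 39.4% at a common level, and 1500 or 23.7% had 2 or more. The variance of the thinned UMIs was 1.48 times their mean, where Poisson counting at 1 level gives 1. In another check every cell's UMIs were split at random into equal parts. The 3333 cells with a LINC01419 UMI in the first part held 241 CPM (234 to 249) of it in the other part, and the 3360 cells without one held 128 CPM (123 to 134). Cells divided by LINC01419 in a portion of their UMIs thus differed in the portion that was not used to divide them.

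Across all genes the groups were close. With LINC01419 left out, 5767 genes averaged 10 CPM or more over the groups, and of these 98.2% lay within 1.5-fold, and the standard deviation of the log2 ratio was 0.19 around a median of 0.03. In LINC01419+ cells 57 genes were at least 1.5-fold higher, which is 0.988% of the genes compared, and 47 were at least 1.5-fold lower, which is 0.815%. At 2-fold there were 7 higher genes (0.121%) and 4 lower ones (0.0694%). After thinning and regrouping 51 genes were higher (0.884%) and 54 lower (0.936%). Of the 57 and 47 genes, 36 and 36 were still past 1.5-fold there, and all of them kept the side they were on. With counts split, cells with a LINC01419 UMI in the first part were set against all others and measured in the other part. There 14 genes were past 1.5-fold higher and 8 lower.

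Of the 57 higher genes, 13 belonged to cell cycle lists, 8 to the neural crest-like or MHC class II lists and 2 to other lists, while 34 were in none of the lists. The 34 include CCNA2, which the study places in its proliferation module, and histone genes such as HIST1H4C, at 3952 and 2517 CPM. The 13 therefore do not cover every cycle gene. The 7 genes past 2-fold, named after their values were seen, were HLA-DRB1, HLA-DRB5, HLA-DQB1, SPRR2D, SHISA2, AC025470.2 and HIST2H2AC. The 4 lower genes past 2-fold were FN1, AREG, TGFBR2 and CCL2, which encode fibronectin, the EGFR ligand amphiregulin, the type II TGF-beta receptor and a monocyte chemokine. Of these, FN1, TGFBR2 and CCL2 were under 10 CPM in LINC01419+ cells and were compared only through the LINC01419- cells. The same held for 11 of the 47 lower genes, and 18 of the 57 higher genes were under 10 CPM in LINC01419- cells, so that such genes had to differ to be compared.

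**Figure D2:**
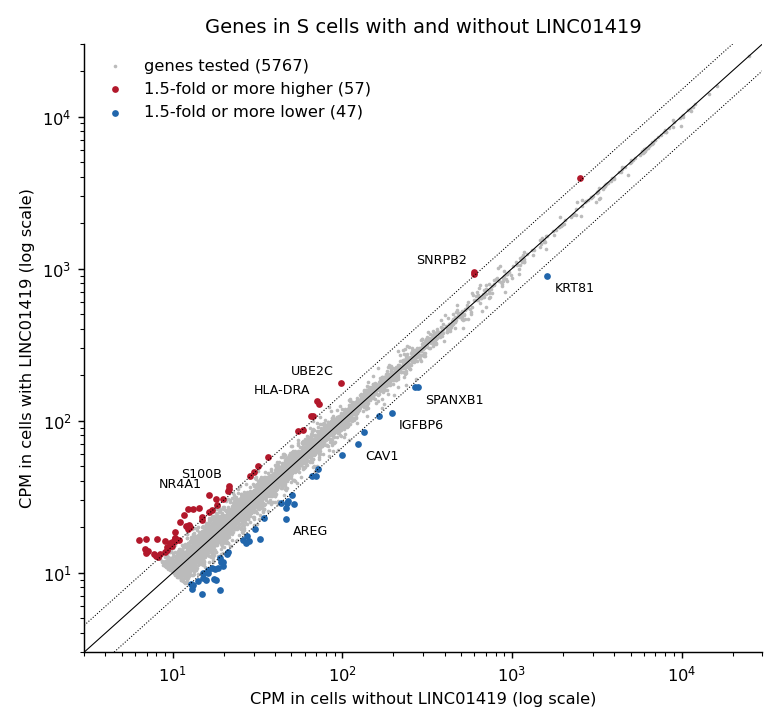
Level of each of 5767 genes in LINC01419- (horizontal axis) and LINC01419+ (vertical axis) S cells, in CPM on log scales. The solid line marks equal levels and the dotted lines 1.5-fold, with the 57 higher genes in red and the 47 lower genes in blue; the other genes follow the line of equal levels.

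The MHC class II genes were higher in LINC01419+ cells. Summed over all 11 genes the level was 1285 CPM (1272 to 1297) in LINC01419+ and 813 CPM (800 to 827) in LINC01419- cells. Of the 11, 8 averaged 10 CPM, and HLA-DRB1, HLA-DRB5 and HLA-DQB1 did so only through the LINC01419+ cells, where they were high. The other 5 had 10 CPM in both groups; 4 of them were at least 1.5-fold higher in LINC01419+ cells, beside 0.988% of all genes compared, and their median log2 ratio was 0.62, against 0.03 for all genes.

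HLA-DRA, the alpha chain of HLA-DR (chromosome 6, 32439842 to 32445046), was at 134 CPM (130 to 138) in LINC01419+ cells, 113 CPM in cells with 1 UMI and 71.1 CPM (67.2 to 75.1) in LINC01419- cells. The log2 ratio was 0.91 (0.82 to 1.00), and 0.87 after thinning and regrouping. Cells with a single LINC01419 UMI thus lay nearer the LINC01419+ cells than the LINC01419- cells. CD74, the invariant chain that guides class II molecules through the cell, was the most abundant gene of the list, at 918, 839 and 598 CPM in the same order. HLA-DPA1, the alpha chain of HLA-DP, was at 108, 95.5 and 67.4 CPM. HLA-DMA, part of the complex that loads peptides, was at 25.9, 26.1 and 16.9 CPM, so that the cells with 1 UMI matched the LINC01419+ cells. HLA-DRB1 was at 16.4 and 6.31 CPM, from 504 and 112 UMIs, and HLA-DQB1 at 14.2 and 6.81 CPM. HLA-DRB1 and HLA-DRB5 are near-identical copies between which reads can be split, so their separate values are uncertain. HLA-DPB1 was the member under 1.5-fold, at 42.5 and 32.9 CPM. CIITA, the regulator that switches class II genes on, was below the level needed, at 3.67 CPM in LINC01419+ and 2.76 CPM in LINC01419- cells with a log2 ratio of 0.41 (-0.08 to 0.93), an interval that includes equal levels.

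The 12 class I presentation genes summed to 1371 CPM in LINC01419+ and 1389 CPM in LINC01419- cells. For 9 of them that were compared the median log2 ratio was 0.07, and none was past 1.5-fold, where 0.988% of all genes were higher and 0.815% lower, so that the count by itself says little about a list of this size. The same holds for the interferon response genes, of which 5 of 13 were compared and none was past 1.5-fold, with a median log2 ratio of -0.20.

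Promoters of the class II genes are shown because these genes differed in the same direction, with the CCAAT box, a motif known in class II promoters as the Y box, in capitals on either strand (CCAAT or its complement ATTGG). The windows are RefSeq promoters on GRCh38.p14, from 250 bases before to 50 bases after the start, written 5′ to 3′ along the gene. CD74 lies on the minus strand at chr5:150412861-150413160, HLA-DMA on the minus strand at chr6:32953048-32953347 and HLA-DRB1 on the minus strand at chr6:32589799-32590098.
CD74: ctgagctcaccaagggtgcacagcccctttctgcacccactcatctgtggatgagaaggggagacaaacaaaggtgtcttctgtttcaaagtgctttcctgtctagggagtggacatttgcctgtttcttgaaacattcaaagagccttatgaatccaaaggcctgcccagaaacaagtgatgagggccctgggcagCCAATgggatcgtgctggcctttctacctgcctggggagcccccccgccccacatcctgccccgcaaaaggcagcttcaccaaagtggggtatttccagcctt
HLA-DMA: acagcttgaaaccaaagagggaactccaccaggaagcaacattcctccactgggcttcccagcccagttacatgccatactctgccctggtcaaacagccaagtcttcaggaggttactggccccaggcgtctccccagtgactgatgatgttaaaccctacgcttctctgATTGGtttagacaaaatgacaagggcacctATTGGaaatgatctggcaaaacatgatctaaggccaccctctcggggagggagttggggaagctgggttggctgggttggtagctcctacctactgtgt
HLA-DRB1: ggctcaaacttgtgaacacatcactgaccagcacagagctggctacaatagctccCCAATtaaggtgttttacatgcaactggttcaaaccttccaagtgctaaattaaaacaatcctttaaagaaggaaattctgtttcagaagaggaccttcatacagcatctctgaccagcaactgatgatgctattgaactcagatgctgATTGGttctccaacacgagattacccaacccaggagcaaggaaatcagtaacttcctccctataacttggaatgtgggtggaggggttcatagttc
Of the 8 class II genes compared 7 had a window, and 6 of these 7 held the letters. Of the 8 windows of these genes 75% held them, and of all 35116 windows 34.6%. A match of letters is not a bound site, and no match says only that the letters are not in the window.

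The neural crest-like markers were taken from a list of 13 genes that the study chose on these libraries, so their direction is not independent evidence. All 8 compared were above an equal level in LINC01419+ cells, against 57.8% of all genes (3332 of 5767), and 5 were past 1.5-fold, against 0.988%. HLA-DRB1 and HLA-DRB5 were compared only through the LINC01419+ cells, and 3 of the other 6 were past 1.5-fold, with a median log2 ratio of 0.53. The list summed to 1406 CPM (1393 to 1419) in LINC01419+, 1283 CPM in 1-UMI and 917 CPM (903 to 932) in LINC01419- cells. CD74, HLA-DRA, HLA-DRB1, HLA-DRB5 and HLA-DQA1 also stand in the class II list.

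Among the lineage genes the ratios varied. S100B, a calcium-binding protein of neural crest derivatives (chromosome 21, 46598962 to 46605208), was at 37.4 CPM (35.3 to 39.6) in LINC01419+, 35.8 CPM in 1-UMI and 21.5 CPM (19.4 to 23.8) in LINC01419- cells, a log2 ratio of 0.80. SOX10, the transcription factor that maintains the lineage, was at 96.8, 88.0 and 71.2 CPM, a log2 ratio of 0.44 (0.35 to 0.54) and of 0.44 after thinning and regrouping. ERBB3, a neuregulin receptor, was at 69.6, 71.7 and 55.0 CPM, and RAMP1, a partner of the calcitonin-like receptor, at 115, 110 and 85.7 CPM. SOX10, ERBB3 and RAMP1 were under 1.5-fold. Their intervals left out equal levels, but these cover counting error only. Among cells with no SPANXB1 UMI their log2 ratios were 0.23, 0.09 and 0.15. With the LINC01419- cells weighted to the total UMIs of the LINC01419+ cells they were 0.64, 0.67 and 0.72. Both settings were chosen after seeing the data. Of the other lineage transcription factors, SOX5 was at 19.6 and 13.3 CPM, and MITF, the regulator of pigment genes, at 8.58 and 11.7 CPM, both under 1.5-fold. TFAP2A was at 10.2 CPM in both groups. With SOX10, 4 such factors were compared, 2 above and 2 below an equal level. Their median log2 ratio was 0.22, and 0.06 after thinning and regrouping. MITF was compared only through the LINC01419- cells. Below the level needed, TFAP2B was at 6.89 and 2.36 CPM, from 212 and 42 UMIs. Its log2 ratio was 1.54 (1.06 to 2.06), and 0.95 after thinning and regrouping. SOX9, also below that level, went the other way at 3.35 and 5.74 CPM. MAJIN and NME9 had no UMI in either group.

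The shares of cells with these transcripts differed in the same way. Thinned to 5000 UMIs, with the groups kept from all UMIs, 50.5% (48.6 to 52.3) of LINC01419+ cells held at least 3 of the 13 neural crest-like markers, against 45.5% of 1-UMI cells and 30.9% (28.8 to 33.1) of LINC01419- cells; unthinned, the shares were 67.7%, 60.4% and 44.0%. With groups set after thinning the shares were 55.3%, 47.3% and 34.9%. HLA-DRA had a UMI in 38.7% (36.9 to 40.5) of thinned LINC01419+ and 21.8% (19.97 to 23.8) of thinned LINC01419- cells, and S100B in 15.2% (13.9 to 16.5) and 8.58% (7.35 to 9.94). The marker genes were thus found in cells of every group. The free RNA of the library could not be set against a cell type that lacks these genes, because S holds a single line, and its part in these shares was not tested.

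Outside the lists, SNRPB2, a small nuclear ribonucleoprotein of the spliceosome (chromosome 20, 16729961 to 16742563), was the most abundant of the 12 higher genes that the naming rule gave. It was at 955 CPM (944 to 966) in LINC01419+, 812 CPM in 1-UMI and 598 CPM (587 to 610) in LINC01419- cells, a log2 ratio of 0.67 (0.64 to 0.71) with 0.60 after thinning and regrouping. NR4A1, an immediate-early nuclear receptor, had the largest ratio of the 12, at 32.3, 20.9 and 16.3 CPM, a log2 ratio of 0.98 (0.79 to 1.18) and of 1.06 after thinning and regrouping. TSPAN13, a tetraspanin, was at 57.4, 49.4 and 36.2 CPM, and SERPINF1, which encodes the secreted factor PEDF, at 30.3, 22.6 and 18.0 CPM. In all 12 higher named genes the cells with 1 UMI lay between the other groups, and their ratios ran from 1.59-fold to 1.98-fold. In 10 of the 12 the ratio was past 1.5-fold after thinning and regrouping, and in 8 with the LINC01419- cells weighted to the total UMIs of the LINC01419+ cells. With counts split, so that cells were grouped by one part of their UMIs and measured by the rest, 3 of the 12 were past 1.5-fold, NR4A1, HLA-DRA and RRM2, and SNRPB2 was at 0.37 and SERPINF1 at 0.30. The same splitting left 4 of the 12 lower named genes past 1.5-fold.

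Other immediate-early genes were not past 1.5-fold higher with NR4A1. Of the 4 with 10 CPM in both groups none was past 1.5-fold in either direction, beside 0.988% of all genes higher and 0.815% lower, and EGR1 was at 23.9 and 19.7 CPM. JUN, compared only through LINC01419- cells, was at 9.19 CPM in LINC01419+ and 15.1 CPM in LINC01419- cells.

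The G2/M genes, which serve mitosis, were higher in LINC01419+ cells, and less so after thinning and regrouping. All 35 compared were above an equal level, against 57.8% of all genes, and 11 were past 1.5-fold, against 0.988%, with a median log2 ratio of 0.46. Some of the 35 were compared only through LINC01419+ cells, and of the 28 with 10 CPM in both groups 8 were past 1.5-fold, with a median of 0.45. The count moved with the setting. After thinning and regrouping 5 of the 35 were past 1.5-fold and the median was 0.31. With the LINC01419- cells weighted 2 were past it and the median was 0.33. Among cells with no SPANXB1 UMI 20 were past it and the median was 0.62. Of the 28 with 10 CPM in both groups, 15 were past it there, beside 1.25% of all 5767 genes compared. The list summed to 1962 CPM in LINC01419+ and 1427 CPM in LINC01419- cells, and to 1806 and 1443 CPM after thinning and regrouping. Over the 3 classes of total UMIs, G2/M genes went from 1063 through 1406 to 2159 CPM, while LINC01419 showed no such trend, so that deep cells were both richer in G2/M transcripts and more often LINC01419+. How much of the difference this accounts for was not tested.

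TOP2A, the topoisomerase that untangles replicated DNA (chromosome 17, 40388516 to 40417950), was at 129 CPM (125 to 133) in LINC01419+, 75.7 CPM in 1-UMI and 72.6 CPM (68.7 to 76.7) in LINC01419- cells. CDK1, the kinase that starts mitosis, was at 26.7, 16.2 and 14.2 CPM, and UBE2C, which works with the anaphase-promoting complex, at 178, 111 and 97.7 CPM. MKI67, the proliferation marker Ki-67, was at 35.5, 22.1 and 21.6 CPM. In these genes the cells with 1 UMI lay nearer the LINC01419- cells. For UBE2C this did not hold after thinning and regrouping, when the levels were 140 CPM in LINC01419+, 134.6 CPM in 1-UMI and 104.7 CPM in LINC01419- cells. The log2 ratio of UBE2C was 0.86, and 0.42 after thinning and regrouping. Of 23 G1/S genes compared, 21 were above an equal level, against 57.8% of all genes, and 2 were past 1.5-fold, against 0.988%, with a median log2 ratio of 0.22 and of 0.25 after thinning and regrouping. RRM2, a subunit of the reductase that makes deoxynucleotides, was at 108, 68.4 and 65.5 CPM, a log2 ratio of 0.72 and of 0.69 after thinning and regrouping. Thinning alone, with the groups and so their link with depth kept from all UMIs, left UBE2C at 0.91, TOP2A at 0.85 and RRM2 at 0.74. In the shallowest class of total UMIs UBE2C was at 0.13, TOP2A at 0.22, MKI67 at 0.37, RRM2 at 0.37 and CDK1 at 0.52. All of these are under 1.5-fold. In the middle class they were past it, from 0.63 for MKI67 to 0.93 for CDK1. In the deepest class UBE2C at 0.59 and CDK1 at 0.64 were past it. TOP2A at 0.49, MKI67 at 0.52 and RRM2 at 0.57 were not. With LINC01419- cells weighted to the total UMIs of the LINC01419+ cells, another alternative chosen after seeing the data, UBE2C was at 0.57, TOP2A at 0.55, MKI67 at 0.55 and RRM2 at 0.58, under 1.5-fold, and CDK1 at 0.74, past it.

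Among the cells below the median of summed cell cycle genes, 1281 LINC01419+ and 1118 LINC01419- cells, an alternative chosen after seeing the data, 4 of the 5 named cycle genes changed direction: UBE2C had a log2 ratio of -0.65, MKI67 -0.88, TOP2A -0.13 and RRM2 -0.12, while CDK1 was at 0.45. The G2/M genes had a median of -0.04 there, with 2 past 1.5-fold higher and 3 lower. These cells were chosen by the same genes, so the values are a description. HLA-DRA was at 0.85 and S100B at 0.88 there, whereas both were under 1.5-fold among cells with no SPANXB1 UMI.

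The promoter of TOP2A is shown as an example of the cycle genes, with the CCAAT box in capitals as above. The gene lies on the minus strand and the window at chr17:40417847-40418146.
TOP2A: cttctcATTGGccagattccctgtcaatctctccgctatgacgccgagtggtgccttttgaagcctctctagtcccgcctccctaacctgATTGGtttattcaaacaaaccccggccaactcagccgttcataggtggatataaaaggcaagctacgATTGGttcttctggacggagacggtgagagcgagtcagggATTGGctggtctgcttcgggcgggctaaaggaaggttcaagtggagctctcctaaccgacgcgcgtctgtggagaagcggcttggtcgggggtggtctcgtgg
Of 36 windows of 29 G2/M genes 75% held CCAAT and 66.7% held TTTGAA, the letters of the cell cycle element known as CHR, against 34.6% and 15.2% of all windows. The CCAAT share was thus equal in the class II and the G2/M windows.

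**Figure D3:**
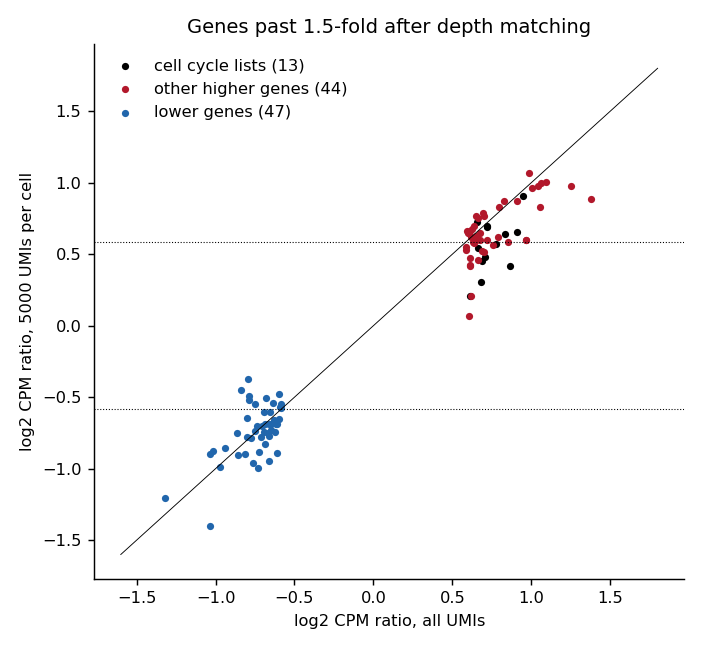
Log2 CPM ratio of LINC01419+ to LINC01419- cells for the 57 higher and 47 lower genes, with all UMIs (horizontal axis) and after thinning each cell to 5000 UMIs and grouping again (vertical axis). Dotted lines mark 1.5-fold and the solid line equal ratios. All genes kept their side, and 36 of the higher and 36 of the lower genes stayed past 1.5-fold.

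On the lower side KRT81, a type II hair keratin (chromosome 12, 52285913 to 52291534), was the most abundant gene. It was at 894 CPM (883 to 905) in LINC01419+, 1135 CPM in 1-UMI and 1619 CPM (1601 to 1638) in LINC01419- cells, a log2 ratio of -0.86 (-0.88 to -0.83) and of -0.90 after thinning and regrouping. In thinned cells it had a UMI in 47.1% (45.3 to 49.0) of LINC01419+ and 67.7% (65.5 to 69.8) of LINC01419- cells. All 5 keratins compared were lower in LINC01419+ cells, 2 of them past 1.5-fold, beside 0.815% of all genes compared. After thinning and regrouping 1 was past it, KRT81, and KRT80 was at -0.57. The others were KRT80 at 28.7 and 43.2 CPM, KRT18 at 704 and 914, KRT7 at 167 and 214, and KRT8 at 126 and 140. The direction of KRT8 was not stable, with a log2 ratio of -0.15 that became 0.07 after thinning and regrouping. The keratin list summed to 1922 CPM in LINC01419+ and 2933 CPM in LINC01419- cells, and KRT81 made up most of that difference.

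Of 12 cancer-testis antigens compared, genes normally limited to germ cells, 3 were at least 1.5-fold lower, against 0.815% of all genes, and none was higher. SPANXB1 (chromosome X, 141002591 to 141003706) was at 165 CPM (161 to 170) in LINC01419+, 177 CPM in 1-UMI and 280 CPM (272 to 288) in LINC01419- cells, a log2 ratio of -0.76 and of -0.96 after thinning and regrouping. SPANXC, a close copy on the same chromosome, was at 28.9, 31.4 and 47.0 CPM, and GAGE1 at 13.2, 18.9 and 20.8 CPM. These belong to families of near-identical genes, between which reads can be split. The MAGE and PAGE members did not follow: MAGEA3 was at 57.3 and 57.4 CPM and PAGE2 at 121 and 117 CPM, and the median log2 ratio of the list was -0.10.

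Seen from SPANXB1, LINC01419 was at 217 CPM (212 to 221) in the 4204 cells with no SPANXB1 UMI, 155 CPM (149 to 162) in 1489 cells with 1 to 4 and 133 CPM (127 to 140) in 1000 cells with 5 or more. The cells with more SPANXB1 were deeper, with medians of 8379.5, 9077 and 11469.5 UMIs, yet the share of LINC01419- cells among them was larger, at 25.8%, 38.4% and 39.8%. LINC01419 was thus found in cells of every SPANXB1 class, at a lower level where SPANXB1 was higher. SPANXB1 was named for being lower in LINC01419+ cells of this library. The levels therefore show the same contrast from the other side and are a description. Cells with no SPANXB1 UMI were an alternative chosen after seeing the data, in which SPANXB1, itself among the 47 lower genes, has no ratio. In these cells 36 of the 57 higher and 42 of the 47 lower genes were still past 1.5-fold. The class II and lineage genes were mostly not among them: HLA-DRA had a log2 ratio of 0.57, CD74 of 0.35, HLA-DPA1 of 0.41, HLA-DMA of 0.42 and S100B of 0.44. Of the 5 class II genes that had 10 CPM in both groups none was past 1.5-fold higher, beside 1.25% of all 5767 genes compared. HLA-DRB1, HLA-DRB5 and HLA-DQB1, compared only through LINC01419+ cells, were past it. SNRPB2 was at 0.54, TSPAN13 at 0.37 and SERPINF1 at 0.41. The class II difference was thus smaller among cells that held no SPANXB1 UMI, and the G2/M difference larger, with UBE2C at 1.10, TOP2A at 1.12 and CDK1 at 1.16. With the LINC01419- cells weighted to the total UMIs of the LINC01419+ cells, the class II difference was instead larger than unweighted. HLA-DRA was at 1.21 there, CD74 at 0.88, HLA-DPA1 at 0.88, HLA-DMA at 0.78 and HLA-DPB1 at 0.47, and the lineage gene S100B at 1.19.

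Of 8 YAP target genes compared, 7 were below an equal level in LINC01419+ cells, against 42.2% of all genes, and 2 were past 1.5-fold, against 0.815%, with a median log2 ratio of -0.21 and of -0.32 after thinning and regrouping. ANKRD1, a muscle and stretch-induced repeat protein, was at 84.4, 89.8 and 134 CPM in LINC01419+, 1-UMI and LINC01419- cells. CYR61, a matricellular protein, was at 32.5, 31.7 and 50.1 CPM, and AMOTL2, a feedback inhibitor of YAP, at 10.8, 10.8 and 15.4 CPM. In these genes the 1-UMI cells lay at or near the LINC01419+ cells. AXL, a receptor tyrosine kinase of undifferentiated melanoma, was at 93.8 and 107 CPM.

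Of the other lower genes of the naming rule, AREG, an EGFR ligand (chromosome 4, 74445134 to 74455009), had the largest ratio of the 12. It was at 22.5 CPM (20.9 to 24.3) in LINC01419+, 28.2 CPM in 1-UMI and 46.3 CPM (43.2 to 49.6) in LINC01419- cells. Its log2 ratio was -1.04 (-1.19 to -0.89), and -0.90 after thinning and regrouping. CAV1, the coat protein of caveolae, was at 70.3, 83.7 and 124 CPM. IGFBP6, which binds insulin-like growth factors, was at 112, 161 and 195 CPM, and STC1, a secreted glycoprotein hormone, at 16.6, 26.1 and 32.4 CPM. ARHGAP29 was at 28.3, 33.0 and 51.5 CPM, and the serine protease PRSS23 at 26.6, 35.7 and 46.4 CPM. SCG5, a chaperone of prohormone convertase 2, was at 59.2, 57.4 and 99.4 CPM, and the transcription factor FOXP1 at 16.2, 20.3 and 28.0 CPM. In 11 of the 12 lower named genes the cells with 1 UMI lay between the other groups, SCG5 being the exception. The ratios ran from 1.63-fold to 2.05-fold, and 11 of the 12, all but FOXP1, were past 1.5-fold after thinning and regrouping.

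Inflammatory genes showed no shared direction. IL1B, a secreted cytokine, was lower in LINC01419+ cells at 15.7 against 26.9 CPM and CCL2 at 7.25 against 14.9 CPM, whereas IL1A was higher at 16.2 against 9.01 CPM. CXCL8 was at 74.3 and 110 CPM and CXCL1 at 122 and 172 CPM, both under 1.5-fold. IL1A and CCL2 were compared only through the group in which each was higher. Of the 8 with 10 CPM in both groups none was past 1.5-fold higher and 1 lower, IL1B, beside 0.988% and 0.815% of all genes, with a median log2 ratio of -0.07.

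**Figure D4:**
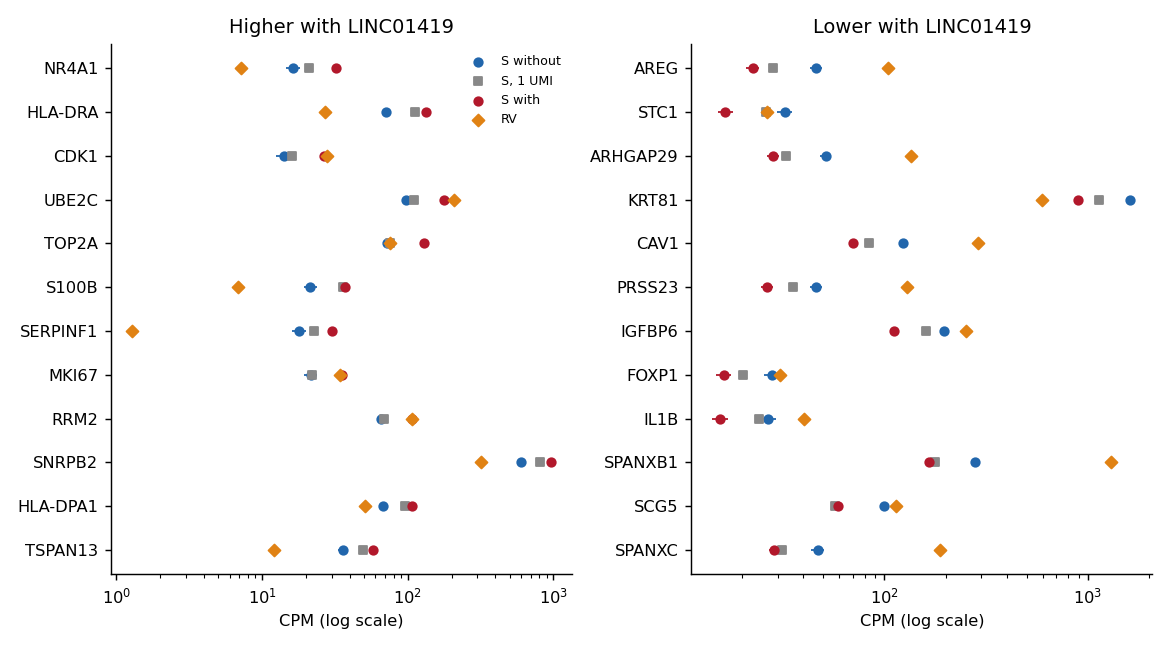
Levels in CPM (log scale) of the 12 named higher genes (left) and the 12 named lower genes (right), in LINC01419- (blue), 1-UMI (grey) and LINC01419+ (red) S cells and in RV (orange). Bars are exact 95% Poisson intervals for the blue and red points and are mostly narrower than the points; the 1-UMI cells lie between the other S groups except in SCG5.

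Other lists showed little. Amino acid and integrated stress response genes were slightly higher, 13 of 14 above an equal level, against 57.8% of all genes, with a median log2 ratio of 0.20 and none past 1.5-fold, and MTHFD2, a mitochondrial folate enzyme, was at 306 and 246 CPM. ERK output genes had a median of -0.05, p53 target genes 0.00, cholesterol and fatty acid synthesis genes -0.05, glycolysis and hypoxia genes -0.09 and ribosomal protein genes -0.01. NQO1, an antioxidant enzyme, was at 285 and 212 CPM and TIMP1, a protease inhibitor, at 1016 and 824 CPM. Their lists did not share this direction. Of 4 NRF2 genes compared 2 were above and 2 below an equal level, with a median of 0.16. Of 4 MMP genes and inhibitors 1 was above and 3 were below, with a median of -0.13. Of 74 other lincRNA genes compared, 2 were past 1.5-fold higher and 2 lower, beside 0.988% and 0.815% of all genes, with a median of 0.00.

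Divided more finely, the groups of genes did not change in the same steps. Over cells with 0, 1, 2, 3 to 4 and 5 to 17 UMIs of LINC01419 the class II sum was 813, 1156, 1301, 1235 and 1346 CPM, so that most of its difference lay between 0 and 1 UMI. The keratin sum ran 2933, 2178, 1921, 2007 and 1774 CPM, with the same early step. The G2/M sum ran 1427, 1418, 1628, 1913 and 2566 CPM, with no step from 0 to 1 and the largest at 5 and over. The median depth of these 5 classes was 8242, 8524, 8901, 9792 and 11331 UMIs. Grouped after thinning, as 0, 1 and 2 or more UMIs, the G2/M sum was 1443, 1537 and 1806 CPM and the class II sum 938, 1342 and 1474 CPM. Just inside and just outside the division, at 2 and 1 UMIs, HLA-DRA was at 127 and 113 CPM and KRT81 at 939 and 1135 CPM.

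**Figure D5:**
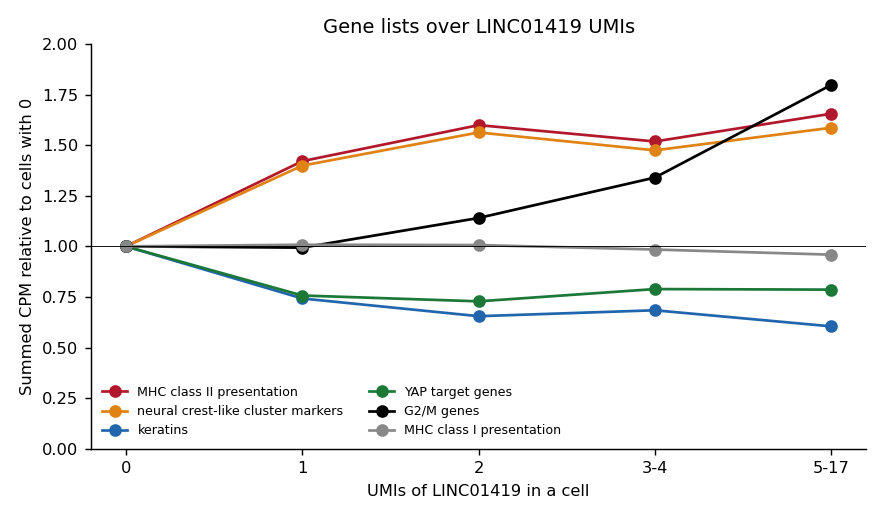
Summed CPM of 6 gene lists relative to the cells with 0 UMIs (vertical axis) over classes of LINC01419 UMIs per cell (horizontal axis) in S. The class II and neural crest-like lists step up and the keratins and YAP targets step down between 0 and 1 UMI, G2/M genes climb from 2 UMIs on, and class I genes stay near 1. The class II and neural crest-like lists share CD74, HLA-DRA, HLA-DRB1, HLA-DRB5 and HLA-DQA1, so their curves are not independent.

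By position the ratios varied little, apart from a stretch of chromosome 2. Over 23 chromosomes the median log2 ratio ran from -0.08 to 0.07, and over 117 blocks of 50 neighbouring genes from -0.09 to 0.15. The highest blocks lay side by side on chromosome 2, from 161308038 to 201085750 and from 201233443 to 231172827. They were at 0.149 and 0.152, and at 0.152 and 0.140 after thinning and regrouping. The next highest block was at 0.101. The cause was not tested. Of the 10 listed genes on each side, 2 were compared, both far from LINC01419, and the genes listed within 774 kb of it had at most 2 UMIs in either group. ZFAND1, a zinc finger protein at -1671 kb, was at 78.2 and 76.9 CPM in LINC01419+ and LINC01419- cells, and C8orf59, at 1805 kb, was at 185 CPM in both.

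RV cells, of which almost all held 0 UMIs of LINC01419, were set beside both groups of S cells. The comparisons share RV and S cells, so levels are given side by side only. RV was at least 1.5-fold above LINC01419+ cells in 347 genes (5.99% of 5797) and below in 265 (4.57%), and above LINC01419- cells in 273 (4.71%) and below in 188 (3.24%). The standard deviation of the log2 ratio was 0.46 and 0.38. Both spreads exceeded that between the groups within S. Of the 12 higher named genes, HLA-DRA was at 26.9 CPM in RV, HLA-DPA1 at 50.6, S100B at 6.86, SERPINF1 at 1.28, SNRPB2 at 320, NR4A1 at 7.24 and TSPAN13 at 12.0 CPM, under both groups of S. The cycle genes were at 28.1 CPM for CDK1, 207 for UBE2C, 75.6 for TOP2A, 34.5 for MKI67 and 107 for RRM2, at or over the LINC01419- cells. Of the 12 lower named genes, SPANXB1 was at 1300 CPM, SPANXC at 188, CAV1 at 288, IGFBP6 at 252, ARHGAP29 at 136, PRSS23 at 130, SCG5 at 114, AREG at 105, IL1B at 40.2 and FOXP1 at 30.7 CPM, over both groups of S. STC1 was at 26.5 CPM, between the groups, and KRT81 at 595 CPM, under both.

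RVC, the other library with the transcript, allowed the same division in cells that took no part in the S result, an addition made after seeing the data. Of 8307 RVC cells, 5206 or 62.7% were positive by the same count and 1562 or 18.8% had 0 UMIs, against 8.40% at a common level. The depth gap was wider than in S, with medians of 4741 and 2823.5 UMIs. Of 3383 genes compared in S that averaged 20 CPM or more in RVC, 43 were at least 1.5-fold higher in the positive cells (1.27%) and 60 lower (1.77%). Of the 57 higher genes of S, 22 were measured in RVC, 19 of them above an equal level against 48.1% of all genes, and 16 of 22 against 53.4% after thinning to 2500 UMIs; none was past 1.5-fold. Of the 47 lower genes 21 were measured, and 10 were below an equal level, against 51.9% of all genes; 6 of these were past 1.5-fold.

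By gene, the RVC values were mixed. HLA-DPA1 was at 61.0 CPM in positive and 47.1 CPM in negative RVC cells, and TOP2A at 234 and 163 CPM, the same side as in S. SNRPB2 was at 221 and 286 CPM, the opposite side. CAV1 was at 527 and 424 CPM and PRSS23 at 127 and 83.9 CPM, higher in the positive cells where S had them lower, while SCG5 was at 585 and 867 CPM, lower in both libraries. After thinning to 2500 UMIs the log2 ratios in RVC were 0.42 for CAV1, 0.82 for PRSS23, -0.47 for SCG5 and -0.34 for SNRPB2. S100B had no UMI and KRT81 and SPANXB1 were at most at 0.388 CPM in RVC, so that a comparison there was not possible at this depth. HLA-DRA was at 13.2 and 11.8 CPM, from 349 and 61 UMIs. Of the genes that could be measured in RVC, the higher ones of S mostly lay on the same side with small ratios, and about as many of the lower ones lay on either side. The higher ones measured include the cycle genes CDK1, MKI67, RRM2, TOP2A and UBE2C, and the depth gap was wider in RVC than in S. From the lists, 31 G2/M genes were measured there, 23 above and 8 below an equal level, but 4 class II genes and 1 neural crest-like marker. The class II and lineage genes of S were thus hardly covered by RVC.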

How the data were processed

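Per the labels, libraries of S, RV, RVC and RVT cells came from the 10x Genomics Chromium v2 system, and the reads went through bcl2fastq 2.20.0.422 and Cell Ranger on GRCh38. The deposited values are raw UMI counts by gene identifier and barcode, with no normalization. Per its methods the study removed dead and doublet cells for its own analysis; thresholds are not given in the sources used here, and the deposited S table lists more barcodes than the S cells that the study counts. Of 33694 identifiers listed for S, 33132 were named with GENCODE 29. Cells were kept at 500 genes and 20% mitochondrial UMIs.

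UMIs were summed over the cells with at least 2 and with 0 UMIs of LINC01419 and expressed as CPM, and genes averaging 10 CPM or more over both were compared, as ratios with a threshold of 1.5-fold. With 1 library per condition no p-value was made. At a sum of 0, 3 UMIs were taken as the upper limit, 0.0975 CPM in LINC01419+ and 0.169 CPM in LINC01419- cells. Depth was matched by drawing 5000 UMIs from each cell without replacement (random seed 1). Doublets were left in, and scrublet scores served for an alternative that removed 0.8% per 1000 barcodes, since the caller's own threshold marked 5 barcodes. Named genes were the 12 largest and 12 smallest ratios among genes with at least 20 CPM that went the same way in thinned cells and in each of 3 equal classes of total UMIs; ribosomal, mitochondrial and Y-linked genes were not named, and members of lists were named with their list. The cells, the 36 lists and this rule were chosen with earlier results of these data known. Alternatives were other LINC01419 thresholds, other cell filters, the 3 classes of total UMIs, splitting of counts, TMM factors, other library sizes, equal cell weights, other filters on low genes and an added 10 CPM. Ratios were tested on simulated data, in which 200 of 5767 genes were changed 2-fold and 100% were recovered. The simulation did not cover changes between 1.5-fold and 2-fold, where most of the genes past 1.5-fold lay. Software was python 3.11.15, numpy 2.4.6, pandas 2.3.3, scipy 1.17.1, scanpy 1.11.5, matplotlib 3.10.9 and edgeR 4.0.16 in R 4.3.3.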

Additional observations from a re-analysis of the deposited data

How the results depend on the processing

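Across thinning, doublet removal, TMM factors, other library sizes and equal cell weights, both counts of genes past 1.5-fold stayed within 1.5 times of 57 higher and 47 lower. They moved with the LINC01419 threshold, to 29 and 31 at 1 UMI or more and to 169 and 104 at 5 or more. Within the 3 classes of total UMIs, which hold fewer cells, there were 109 higher genes in the middle and 87 in the deepest class, and 129 lower genes in the shallowest and 92 in the middle class. Splitting of counts left 14 and 8. It divided cells by fewer UMIs, at 1 or more against 0, and kept no cells apart. With a filter of 3 CPM there were 135 and 134, with 50 CPM 10 and 11, and with 10 CPM added 16 and 12. Of the alternatives added after seeing the data, cells below the median of cell cycle genes gave 94 lower genes and cells with no SPANXB1 UMI 85; the cause was not tested. The share of cells was 69.3% at 1 UMI or more, 26.4% at 3, 8.86% at 5, and 51.9% with at least 2000 genes per cell. Genes past 1.5-fold in RV, 612 over LINC01419+ and 461 over LINC01419- cells, were 1276 and 993 at 3 CPM and 161 and 116 at 50 CPM. Among the named genes 4 changed direction, all in cells below the median of cell cycle genes: UBE2C to -0.65, TOP2A to -0.13, MKI67 to -0.88 and RRM2 to -0.12 on the log2 scale. No paired analysis was possible because each condition has 1 library.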
